A study of Mus musculus with 30 samples.

Results

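Whole eye and hypothalamus of the same animals were set side by side, to ask whether a mouse whose level of a transcript lay above that of its group in the eye also lay above it in the hypothalamus. The 14 mice with an array of both tissues gave 28 of the 30 arrays of the series, and they were found by matching genotype and replicate number (WT 1 and 3 to 8, Per3-/- 2 to 8). That arrays of equal genotype and number come from the same animal is taken from this numbering and is not spelled out in the labels. The hypothalamus arrays of WT mouse 2 and Per3-/- mouse 1 had no eye partner and were not used. All animals were adult males. In Per3-/- mice the clock gene Per3 is disrupted throughout the body. The study describes undetectable PER3 protein in them, while a longer Per3 mRNA is still made. WT controls were littermates per the study's methods, and both genotypes were on a C57Bl/6J background. The mice had been kept in 17 cycles of 3.5 h light and 3.5 h dark, and were killed during a light phase. The hypothalamic tissue was a block around the optic chiasm that includes the suprachiasmatic nucleus.

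A transcript can vary together in distant tissues of an animal where a circulating signal reaches both of them. Glucocorticoids from the adrenal cortex enter most cells and act through a nuclear receptor on a shared set of targets, interferons act on immunity genes in most cell types, and blood left in the vessels carries the transcripts of red cells into any tissue sample. Inherited differences between animals, such as the copy number of a gene family, are also present in every tissue of a mouse. The circadian clock runs in both the retina and the hypothalamus, so the sampling time relative to an animal's own rhythm is shared as well.

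Each value below is the log2 of a probe's background-subtracted intensity minus the log2 of the 75th percentile of its array, here called the log2 relative level, so that 0 is the 75th percentile. Of 41174 probes, 25401 were well above background on all 28 arrays and 25344 of these had no marked spot and were tested. The genotype and slide means were taken out of both tissues before the correlation r over the 14 mice was computed. The r with only the genotype means taken out is given for the genes described most fully and for some others where it differs greatly. Every mouse had the same slide number and the same position on the slide in both tissues, although the slides of the tissues were different ones. An effect of slide or position that recurred in both tissues therefore cannot be told apart from an effect of the mouse, except by taking these terms out as well. Slide 1 of the eye arrays held only WT 1 and Per3-/- 2, so with slide taken out these mice add little to r.

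The 75th percentile of the intensity ranged from 1192 to 1736 on the eye arrays and from 1440 to 2253 on the hypothalamus arrays, and 71.4% to 80.7% and 69.1% to 75.6% of the probes were well above background. That percentage itself tended to go together in the same mouse (r = 0.62, permutation p = 0.0312; rho = 0.60, permutation p = 0.0336; r = 0.58 without the 2 mice farthest from the median), but did not pass after Benjamini-Hochberg adjustment over the 2 array measures tested (0.0624). Its part in the correlations of the probes was not tested. The 75th percentile gave r = 0.36 (permutation p = 0.218; rho = 0.40, permutation p = 0.174), and r = 0.06 without the 2 farthest mice. The hypothalamus array of Per3-/- mouse 7 stood apart from its group. It held 16.3% of the summed squared deviations of the 14 hypothalamus arrays and was the farthest array for 19.9% of the probes, whereas the eye array of the same mouse was the farthest for 3.63%. Values without this mouse, or the range without each mouse in turn, are given for some of the genes in which it stood out.

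The tissues carried their own markers. The lens crystallin Cryaa ranged from 8.40 to 8.81 over the eye arrays and from -4.96 to -4.10 over the hypothalamus arrays. Pmch, the precursor of melanin-concentrating hormone, was well above background on all 14 hypothalamus arrays and on none of the 14 eye arrays. The level of Per3 ranged from -3.62 to -2.64 (median -3.30) in the eye of WT mice and from -4.20 to -2.97 (median -3.81) in that of Per3-/- mice, so the genotypes overlapped. In the hypothalamus the WT range of -3.82 to -3.32 lay above the Per3-/- range of -4.24 to -3.88. Where the probe lies relative to the disrupted part of the gene is not given in the sources used here. With genotype and slide taken out the r of Per3 between the tissues was -0.04, and with genotype means alone it was 0.07.

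Over all probes the covariation of the tissues of a mouse was within the range of that of swapped mice. The median r over the 25344 probes was 0.040, with quartiles of -0.22 and 0.29, and 54.2% of the probes had r above 0. When mice of the same genotype and slide were swapped between tissues in all 64 possible ways, 13 pairings including the true one gave a median at least as high (one-sided exact permutation p = 0.203, the smallest possible being 0.0156). The other pairings ran from -0.062 to 0.075. With only the genotype means taken out the median was 0.055 (exact permutation p = 0.234), and with position taken out as well as genotype and slide it was 0.005 (exact permutation p = 0.484). The last setting was added after the data were seen. By the spread of the probes between mice, the median r was 0.012 in the decile of least spread, was highest in the eighth decile (0.063) and was -0.00035 in the decile of most spread. The share of probes with r over 0.7 was 1.30% in the first of these and 2.29% in the last.

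**Figure D1:**
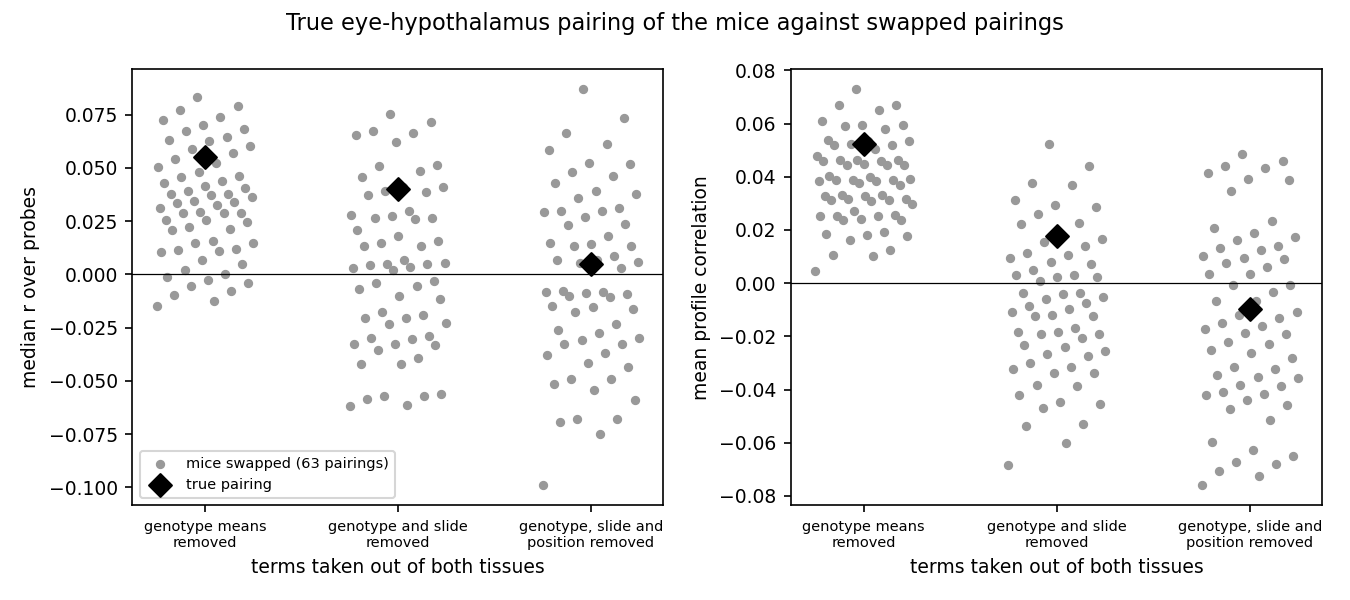
Median r over probes (left) and mean profile correlation of matched mice (right), on the y axes, for the true pairing of eye and hypothalamus (black diamond) and for the 63 pairings with mice swapped within genotype and slide (grey points), with 3 sets of terms taken out. The true pairing lies inside the cloud of swapped pairings in all 6 columns of points.

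The same comparison was made mouse by mouse, by correlating the residuals of 1 eye array with those of 1 hypothalamus array over all tested probes. Matched mice had a mean profile correlation of 0.018 (range -0.18 to 0.18), and mice swapped within genotype and slide had a mean of -0.024 (range -0.15 to 0.21). Of the 64 pairings, 12 including the true one gave a mean at least as high (one-sided exact permutation p = 0.188). Each eye array was compared with 14 hypothalamus arrays, and 4 of the 14 eye arrays were most like that of their own mouse. With genotype means alone 3 were, and with position taken out 2. Arrays at the same position on different slides had a mean of 0.021, and with position taken out the mean of matched mice was -0.010.

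**Figure D2:**
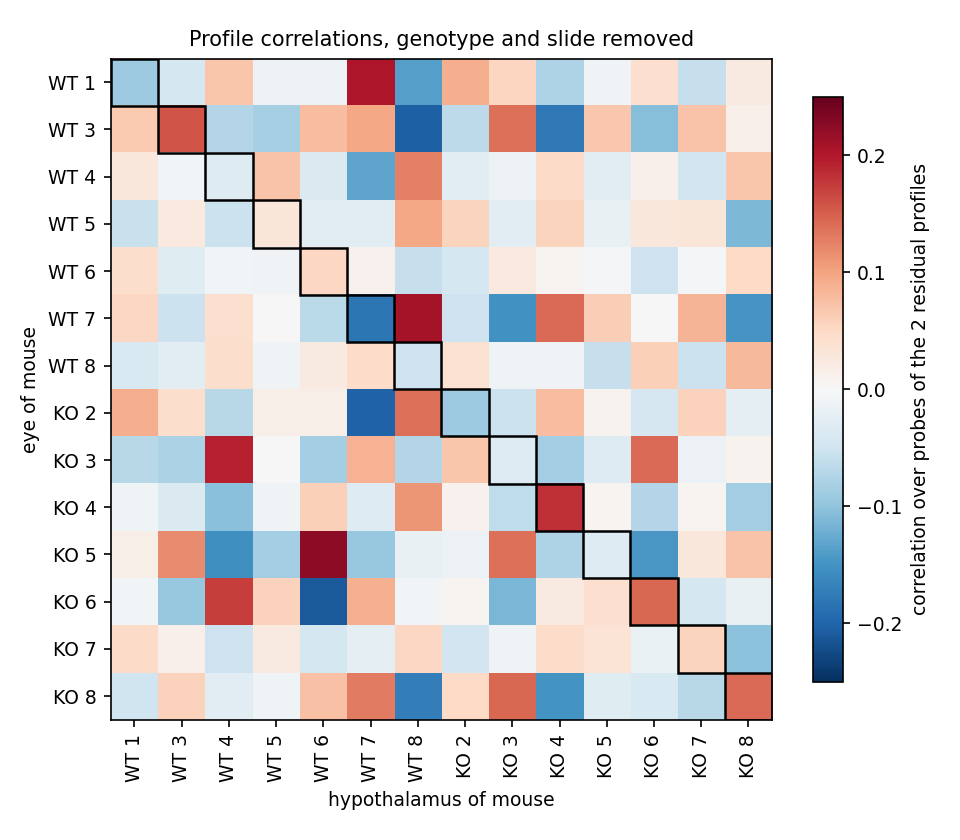
Correlation over the tested probes between the residual profile of each eye array (rows) and each hypothalamus array (columns), with genotype and slide taken out; outlined squares on the diagonal are matched mice, and KO stands for Per3-/-. The diagonal ranges from -0.18 to 0.18 and does not stand out from the other squares.

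One probe of 25344 was called at an adjusted p under 0.05 (0.00395% of the probes tested), and 11 of the 64 pairings including the true one called at least as many (exact permutation p = 0.172). The probe was that of Xlr3c, on the X chromosome (chrX:70500281-70500340, mm9). Xlr3c belongs to the X-linked lymphocyte-regulated family, a cluster of near-identical copies, so the signal may include other copies. Its level in the eye ranged from -3.51 to 0.03 (median -1.70) in WT mice and from -3.63 to 0.45 (median -1.98) in Per3-/- mice. In the hypothalamus it ranged from -2.55 to -0.54 (median -1.52) and from -3.22 to -0.43 (median -1.47). WT 4 and Per3-/- 2 and 4 were among the highest in both tissues, and WT 8 and Per3-/- 6 were the lowest of their genotype in both. The correlation was r = 0.94, with a hypothalamic slope of 0.68 ± 0.074 (SE, n = 14 mice) per unit in the eye (limma with Benjamini-Hochberg adjustment, adjusted p = 0.0420). Since the probe is named for having the lowest p of all, its values and the shuffles that follow describe it and add no independent support. The same holds for the other probes named by low p, for those named as among the highest or lowest of their list, and for those named after their values were seen. With genotype means alone r was 0.95 and rho 0.95 (permutation p = 1e-05 for both, the smallest that 100000 shuffles can give), r was 0.96 in WT and 0.94 in Per3-/- mice, and it was 0.95 without the 2 mice farthest from the median.

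The call of Xlr3c was close to the threshold and was lost with normexp background correction, where r was 0.73. Leaving out each mouse in turn left r between 0.93 and 0.96, while the adjusted p (limma) ran from 0.0168 to 0.226 and stayed under 0.05 only without WT 5 or Per3-/- 6. Without Per3-/- mouse 7 it was 0.0582. Xlr4b (chrX:70467736-70467792, mm9), another member of the family, was named after its values were seen. It ran from 1.07 to 2.99 in the eye and from -1.67 to 1.46 in the hypothalamus over all 14 mice, with WT 4 and Per3-/- 2 and 4 the highest in both tissues, as for Xlr3c. Its r was 0.63 (limma, unadjusted p = 0.0223, adjusted p = 0.875).

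Tgtp1, an interferon-inducible GTPase of cell-autonomous immunity, had the next lowest p. It is shown through the 60 bases of its probe (chr11:48800173-48800232, mm9, minus strand), which lie in an open reading frame and which the neighbouring copy Tgtp2 may share.
Tgtp1 probe: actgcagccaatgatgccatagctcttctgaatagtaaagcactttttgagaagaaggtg
Its level in the eye ranged from -1.34 to 0.00 (median -0.78) in WT and from -1.05 to 0.02 (median -0.40) in Per3-/- mice, and in the hypothalamus from -2.44 to -1.33 (median -2.01) and from -2.02 to -1.26 (median -1.77). WT 5 and Per3-/- 3 and 7 were the highest of their genotype in both tissues, and WT 3 and 4 the lowest. The correlation was r = 0.92 with a slope of 0.74 ± 0.10 (SE), which did not pass adjustment over all probes (limma, adjusted p = 0.127). With genotype means alone r was 0.91 (permutation p = 7e-05) and rho 0.89 (permutation p = 0.00012). A second probe of Tgtp1, at chr11:48799587-48799646, gave r = -0.18, so the probes of the gene disagreed.

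Slc25a37, which encodes the mitochondrial iron importer mitoferrin-1, fell into separate clusters of mice, so no pooled correlation is given. WT mouse 6 was at -4.05 in the eye and -3.99 in the hypothalamus, and Per3-/- mouse 5 at -4.00 and -3.90. The other 12 mice ranged from -3.36 to -3.13 in the eye, and their hypothalamus from -3.20 to -2.74, with no overlap in either tissue. The probe (chr14:70080666-70080725, mm9) is assigned to Slc25a37 by the array's symbol but lies apart from the other probes of the gene at chr14:69860020-69860079 and chr14:69863195-69863254, which gave r = 0.51 and r = -0.06.

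**Figure D3:**
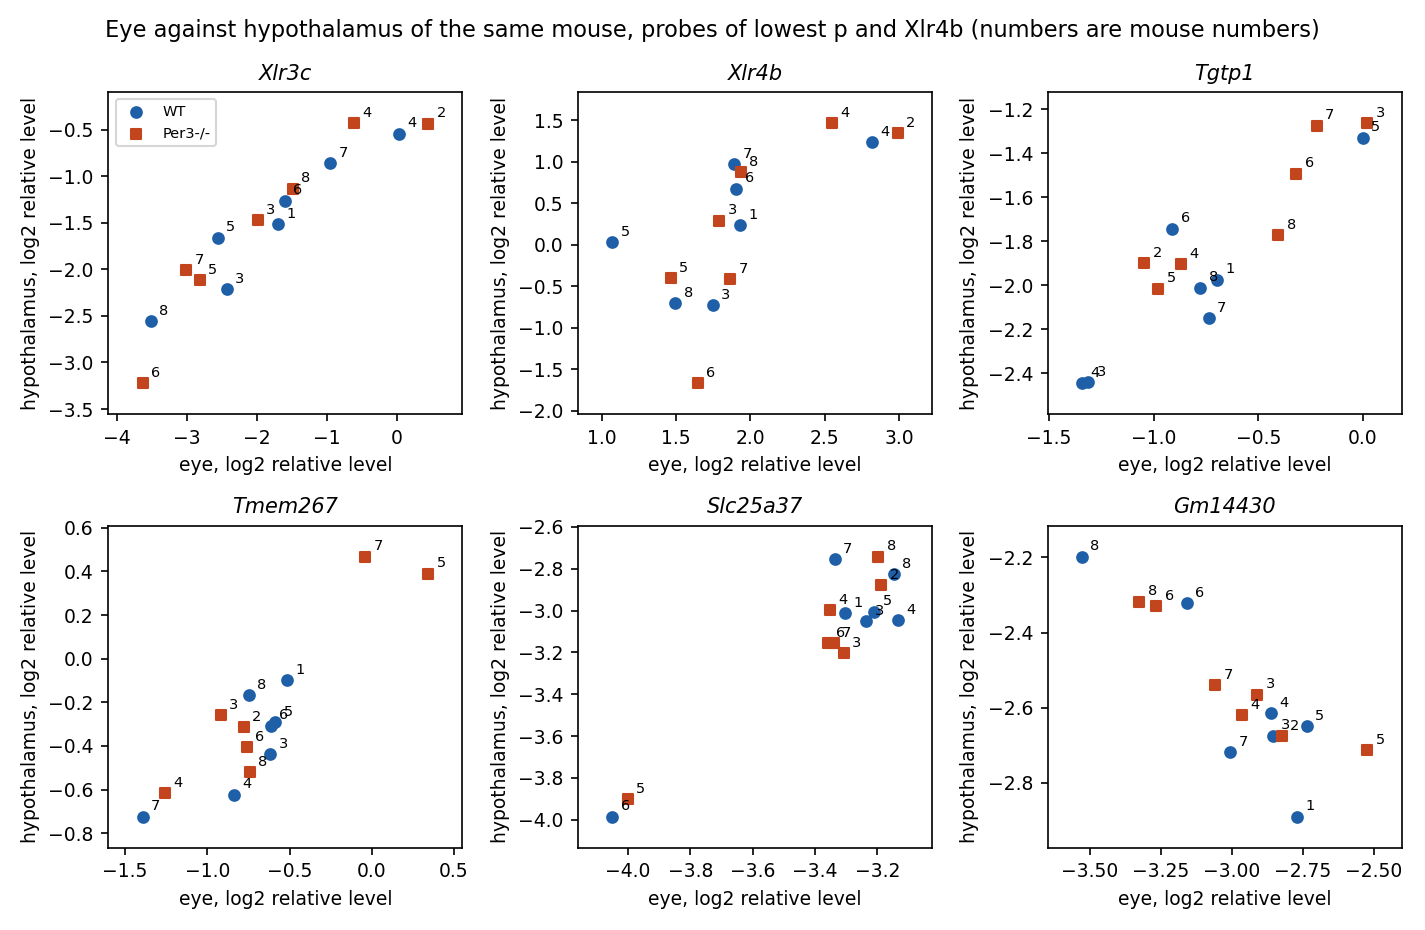
Log2 relative level in the eye (x axis) and hypothalamus (y axis) of each of the 14 mice, WT as blue circles and Per3-/- as red squares, numbered by mouse, for 5 of the probes of lowest p and for Xlr4b. Xlr3c rises along 1 line in both genotypes, Slc25a37 has 2 mice below the other 12 in both tissues, and Gm14430 runs the opposite way.

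Other probes of low p had no call with slide taken out (limma adjusted p of 0.127 to 0.452). Tmem267, a predicted membrane protein, was highest in Per3-/- 5 and 7 in both tissues, with eye levels of 0.34 and -0.04 against -1.26 to -0.74 in the other Per3-/- mice, and hypothalamus levels of 0.39 and 0.47 against -0.62 to -0.26 (r = 0.90, adjusted p = 0.166 by limma). For 1700030C10Rik, Per3-/- 7 was the highest (-3.37 in the eye, -2.23 in the hypothalamus) and r was 0.90. Without each mouse in turn r stayed between 0.86 and 0.93 for 1700030C10Rik and between 0.85 and 0.95 for Tmem267. Fbxl18, an F-box protein, rested on WT 3 and 4, which lay at -4.51 and -4.52 in the eye and at -2.95 and -2.97 in the hypothalamus, below all others. Its r of 0.83 with genotype means fell to -0.08 without the 2 farthest mice. Cdk5rap1 reached 0.87, Mapk13 0.90, Mapk15 0.90 and the olfactory receptor Olfr978 0.94. With genotype means alone the r was 0.88 for Cdk5rap1, 0.54 for Mapk13, 0.10 for Mapk15 and 0.41 for Olfr978.

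Negative correlations were fewer, and the named ones are given as values. Gm14430, a zinc finger gene of a repeated family on chromosome 2, had r = -0.93 (slope -0.70 ± 0.11 SE, adjusted p = 0.166 by limma). WT 8 was the lowest WT mouse in the eye (-3.53) and the highest in the hypothalamus (-2.20). After normexp background correction its r was -0.03. Uvrag, Nlrp10, AK036326 and Mef2c had r between -0.92 and -0.84. With genotype means alone AK036326 had r = -0.10 and Nlrp10 r = -0.42, and with normexp Uvrag had r = 0.18 and AK036326 r = -0.05. The hypothalamus of Per3-/- mouse 7 was at -1.48 for Nlrp10 against -4.95 to -4.51 in the other Per3-/- mice, and at 2.01 against 0.57 to 0.88 for the transcription factor Mef2c. Without that mouse r was -0.62 for Nlrp10 and -0.77 for Mef2c. At an unadjusted p under 0.05 the limma fit gave 872 positive slopes (3.44% of probes) and 515 negative ones (2.03%). The positive count was reached or passed in 9 of the 64 pairings (exact permutation p = 0.141).

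With only the genotype means taken out, 24 probes were called (0.0947% of those tested), 23 of them positive, and 1 of the 63 swapped pairings called more (31 probes, exact permutation p = 0.0312). Slide means remain in the values of this fit, so covariation of the slides and of the mice cannot be told apart in these calls. All 24 had the same sign in WT and in Per3-/- mice taken apart and with slide taken out. They were called in these same mice, so the shared sign adds no independent support. Of the 24, 14 kept an unadjusted p under 0.05 with slide taken out. Besides the genes above they included Gria1, an AMPA receptor subunit (r = 0.90 with genotype means and 0.89 with slide out), Zfp69 (0.85 and 0.82), Ptpn11, which encodes the phosphatase SHP2 (0.89 and 0.68), the DNA repair gene Mgmt (0.87 and 0.29) and the lens filament gene Bfsp2 (0.88 and 0.14). The other probes of Gria1, Mgmt and Bfsp2 had r between -0.60 and 0.24.

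Of the 27 lists, glucocorticoid targets had the highest median r after red cell genes with genotype and slide taken out. With genotype means alone the ribosomal (0.33), Y-linked (0.31) and MHC (0.30) lists lay above them (0.29). Of 18 members 16 were tested, and 13 had r above 0, against 54.2% of all probes. The median r was 0.38, against 0.040 over all probes. An unadjusted p under 0.05 with a positive slope was reached by 5 members (31.2%), against 3.44% of all probes. With genotype means alone 6 members reached it, against 5.93% of all probes. None passed adjustment with slide taken out. Fkbp5 (chr17:28536878-28536937, mm9), a receptor co-chaperone that is a sensitive target of the hormone, ranged in the eye from -1.31 to -0.51 (median -0.92) in WT and from -1.26 to -0.38 (median -1.0) in Per3-/- mice. In the hypothalamus it ranged from -2.94 to -2.40 (median -2.66) and from -2.83 to -2.36 (median -2.69). The 4 mice farthest above their group mean were the same in both tissues, Per3-/- 5 and WT 1, 6 and 4. Its r was 0.88 with slide taken out (slope 0.44 ± 0.11 SE, adjusted p = 0.589 by limma, exact permutation p = 0.125 over pairings) and 0.94 with genotype means (adjusted p = 0.0107 by limma). The shuffles within genotype gave p = 1e-05 for r and p = 0.00025 for rho = 0.89 (permutation tests), and r was 0.88 without the 2 farthest mice. The other 2 probes of Fkbp5 gave r = 0.00 and 0.23.

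Sult1a1, a sulfotransferase, had r = 0.84 with and without slide, and leaving out each mouse kept it between 0.76 and 0.89. WT 6 was the highest WT mouse in both tissues (1.51 and 1.74) and WT 8 the lowest (0.82 and 0.87). Other members depended on 1 mouse. Tsc22d3, which encodes the anti-inflammatory protein GILZ, had r = 0.68 but r = -0.03 without Per3-/- 8, the highest mouse in both tissues (3.44 and 3.54). The kinase gene Sgk1 had r = 0.48 but r = -0.22 without Per3-/- 7, which was the lowest in both (4.82 and 2.32, against at least 5.04 and 2.71 in the others). The inhibitor Nfkbia had r = 0.71 and the signalling inhibitor Errfi1 0.72, but without Per3-/- 8 these were 0.08 and 0.35. The values of Hif3a (-0.14), Cdkn1a (-0.04) and Ddit4 (-0.04) lay near 0. The list median was 0.29 with genotype means, 0.59 with position taken out, and 0.088 without Per3-/- 8.

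The 250 bases upstream of the start of Fkbp5 and Sult1a1, the members of highest r, are shown for the letters they hold (RefSeq, GRCm38.p6, both on the minus strand, at chr17:28486150-28486399 and chr7:126676419-126676668). Capitals mark AGAACA (or TGTTCT, its other strand), which is only a half-site of the glucocorticoid response element, and the E-box CACGTG.
Fkbp5 upstream: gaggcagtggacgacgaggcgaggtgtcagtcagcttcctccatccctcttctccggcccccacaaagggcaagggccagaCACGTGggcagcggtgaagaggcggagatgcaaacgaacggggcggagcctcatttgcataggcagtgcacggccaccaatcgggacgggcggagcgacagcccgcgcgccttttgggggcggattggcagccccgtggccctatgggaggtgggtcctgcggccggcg
Sult1a1 upstream: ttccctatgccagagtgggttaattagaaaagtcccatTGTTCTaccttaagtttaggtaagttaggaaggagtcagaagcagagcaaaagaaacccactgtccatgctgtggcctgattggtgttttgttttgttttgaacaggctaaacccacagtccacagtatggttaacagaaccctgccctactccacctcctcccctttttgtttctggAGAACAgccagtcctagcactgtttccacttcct
Counted over the 250 bases upstream of each start, 3 of the 15 list members with a window held AGAACA on either strand (Sgk1, Tsc22d3 and Sult1a1). Of 27025 genes 18.2% did. The E-box was in 2 of the 15, and in 5 of 17 clock genes (29.4%) against 6.86% of all genes. A match in these letters says nothing of binding.

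Red cell transcripts had the highest median of the lists. Of 14 members 8 were tested, and each of these had r above 0, against 54.2% of all probes, with a median of 0.51. An unadjusted p under 0.05 with a positive slope was reached by 2 of 8 (25%), against 3.44% of all probes. The beta-globin probe is shown because 4 probes of the gene went together (chr7:110962000-110962059, mm9, minus strand). It lies in coding sequence, and the beta-globin copies are near-identical, so Hbb-bt stands for any of them.
Hbb-bt probe: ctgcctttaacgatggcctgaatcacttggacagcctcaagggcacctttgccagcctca
In the eye it ranged from 4.71 to 6.16 (median 5.10) in WT and from 4.41 to 6.35 (median 5.42) in Per3-/- mice. In the hypothalamus it ranged from 5.04 to 5.87 (median 5.52) and from 5.25 to 6.66 (median 5.62). WT 8 was the highest WT mouse in both tissues and Per3-/- 2 the highest or next to highest of its genotype. The 4 probes had r from 0.67 to 0.77, and this probe had r = 0.74 (limma, unadjusted p = 0.00427, adjusted p = 0.717). Over pairings its exact permutation p was 0.0156, the smallest possible. Hbb-bt was named as the highest of its list, so these p values describe it and add no independent support. Alpha-globin Hba-a1, itself indistinct from Hba-a2, had r = 0.54, and Alas2, the erythroid enzyme that starts haem synthesis, 0.69. Fech and Bpgm, which other cells also express, had 0.10 and 0.35. The mean level of the 8 genes ranged from 1.45 to 2.51 over the eye arrays, and from 1.28 to 2.29 over the hypothalamus arrays. In such bulk samples, fewer cells of a type and less RNA per cell cannot be told apart. The list median was 0.54 with genotype means and 0.75 with position taken out, and stayed between 0.39 and 0.68 without each mouse in turn.

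**Figure D4:**
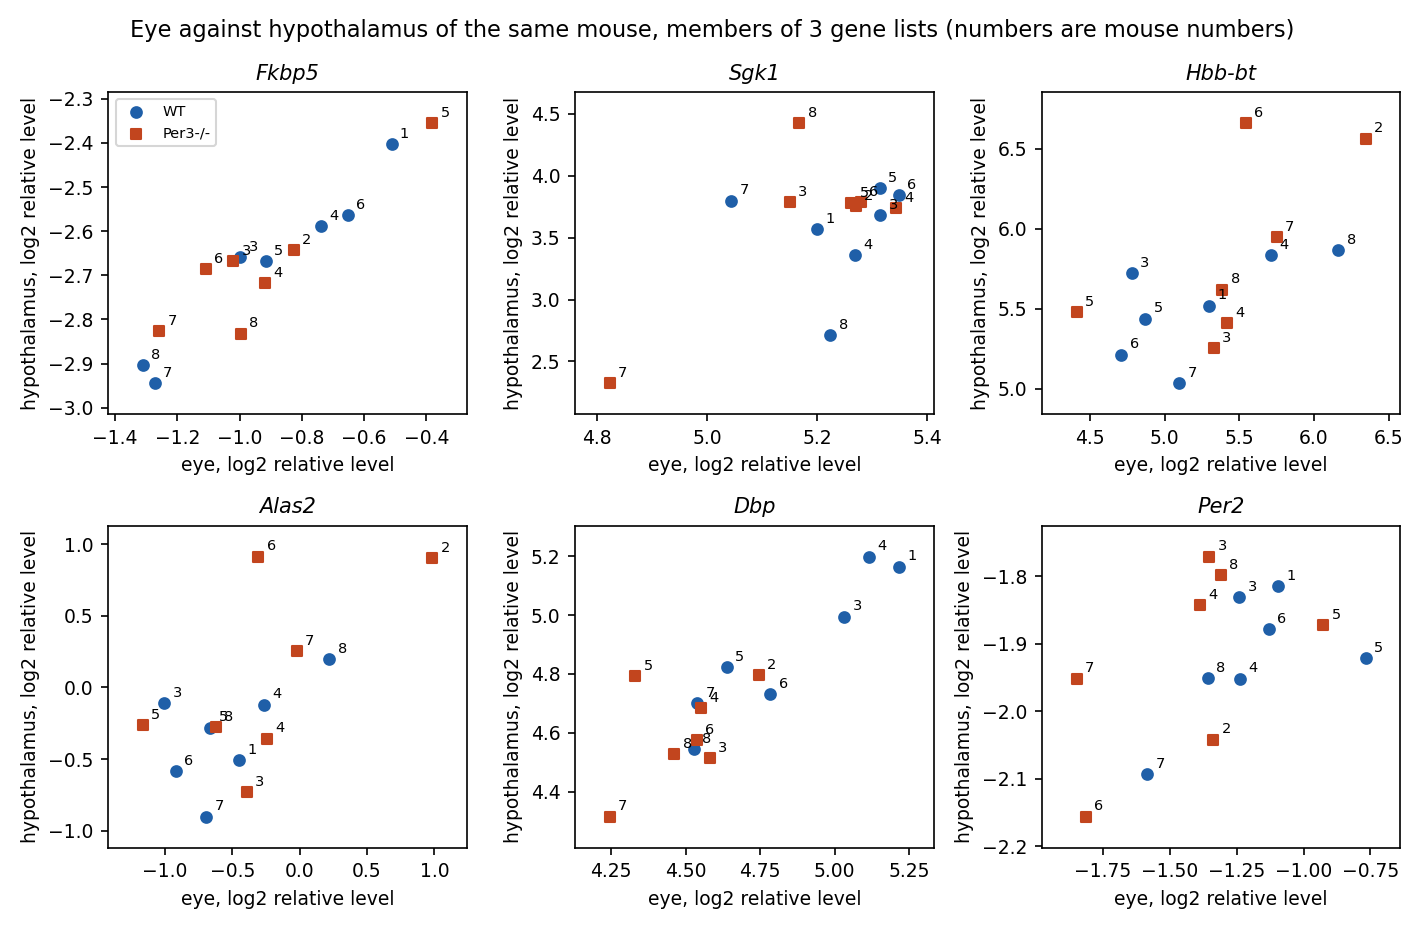
Log2 relative level in the eye (x axis) and hypothalamus (y axis) of each of the 14 mice, WT as blue circles and Per3-/- as red squares, numbered by mouse, for glucocorticoid targets (Fkbp5, Sgk1), red cell genes (Hbb-bt, Alas2) and clock genes (Dbp, Per2). Fkbp5 rises along 1 line, and in the Sgk1 panel Per3-/- 7 and WT 8 lie below the others in the hypothalamus.

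Clock genes as a group had a median r of 0.07 (20 of 21 tested). Of the 20, 11 had r above 0, against 54.2% of all probes. For 3 of them (15%) the slope was positive with its unadjusted p below 0.05, against 3.44% of all probes, and for none was it negative. The repressor Per2 had r = 0.73 (limma, unadjusted p = 0.0144, adjusted p = 0.830), with Per3-/- 5 the highest Per3-/- mouse in the eye (-0.93) but not in the hypothalamus (-1.87). The nuclear receptor gene Nr1d2 had 0.67, the repressor Ciart 0.62 and Per1 0.50. Leaving out 1 mouse took Per2 to 0.46 (Per3-/- 6), Nr1d2 to 0.43 and Ciart to 0.13 (Per3-/- 8), and Per1 to 0.11 (Per3-/- 4). With genotype means only the r of Per2 was 0.56 and that of Ciart -0.18, and a second Per2 probe gave -0.48. Dbp, a transcription factor that is an output of the clock, showed the opposite dependence. In WT mice its level ranged from 4.53 to 5.22 in the eye and from 4.54 to 5.20 in the hypothalamus, and WT 1, 3 and 4 were the highest in both tissues. Its r was 0.81 with genotype means (permutation p = 0.0026; rho = 0.82, permutation p = 0.00247) but 0.44 with slide taken out (limma, unadjusted p = 0.171) and -0.48 with position taken out as well. The activators Arntl and Clock had r of -0.19 and -0.21.

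Interferon-stimulated genes had a median r of 0.25, and 17 of 22 had r above 0, against 54.2% of all probes. The 3 that reached an unadjusted p under 0.05 (13.6%, against 3.44% of all probes with a positive slope) were the GTPase genes Igtp (0.74), Iigp1 (0.69) and Gbp2 (0.58). Per3-/- 3 was the highest of its genotype for all of them in both tissues, and WT 5 the highest WT mouse in the hypothalamus. Per3-/- 3 and WT 5 also stood at the top for Tgtp1. Without Per3-/- 3 the r was 0.29 for Igtp, 0.28 for Iigp1 and -0.10 for Gbp2. Other members ranged from Irgm1 (0.51), Irf9 (0.47) and Rtp4 (0.42) through Ifit1 (0.30) and Isg15 (0.12) to Oas1a (-0.16) and Ifit3 (-0.28). In the list of MHC and lymphocyte genes (median 0.31, 10 of 13 above 0) B2m, the light chain of MHC class I, reached 0.76. With position taken out these lists had medians of 0.02 and 0.04.

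The cytosolic ribosomal proteins (median 0.30, 21 of 30 above 0) and the genes of oxidative phosphorylation (median 0.25, 18 of 22 above 0) also had medians near 0, of 0.02 and 0.04, with position taken out. Rps2 (0.84) and Ndufa4 (0.73, but 0.41 without Per3-/- 8) were their highest members. Of all probes, 54.2% had r above 0. An unadjusted p under 0.05 with a positive slope was reached by 6.67% of the ribosomal and 4.55% of the oxidative phosphorylation genes, against 3.44% of all probes. Heat-shock genes had a median of 0.25 with no member under an unadjusted p of 0.05. Immediate early genes, which respond within minutes to light and activity, had a median of -0.05, with Dusp1 (0.65) and Ier2 (0.60) at one end and Egr2 (-0.61, but -0.13 without Per3-/- 7) and Arc (-0.58, but -0.23 without Per3-/- 8) at the other. Fos and Egr1 had r of -0.10 and -0.05. The median of the immediate early genes was 0.37 without Per3-/- 7. Erdr1, a gene of variable copy number at the end of the sex chromosomes, had r = 0.82 (limma, adjusted p = 0.544). With genotype means alone it had r = 0.68, and a second probe gave r = 0.53 with slide taken out and 0.26 with genotype means. Its neighbour Mid1 had r = -0.01, but r = 0.76 without WT 3 and Per3-/- 3, which stood apart in the eye. The other 8 genes of the copy-number and substrain list had r from -0.22 to 0.49.

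**Figure D5:**
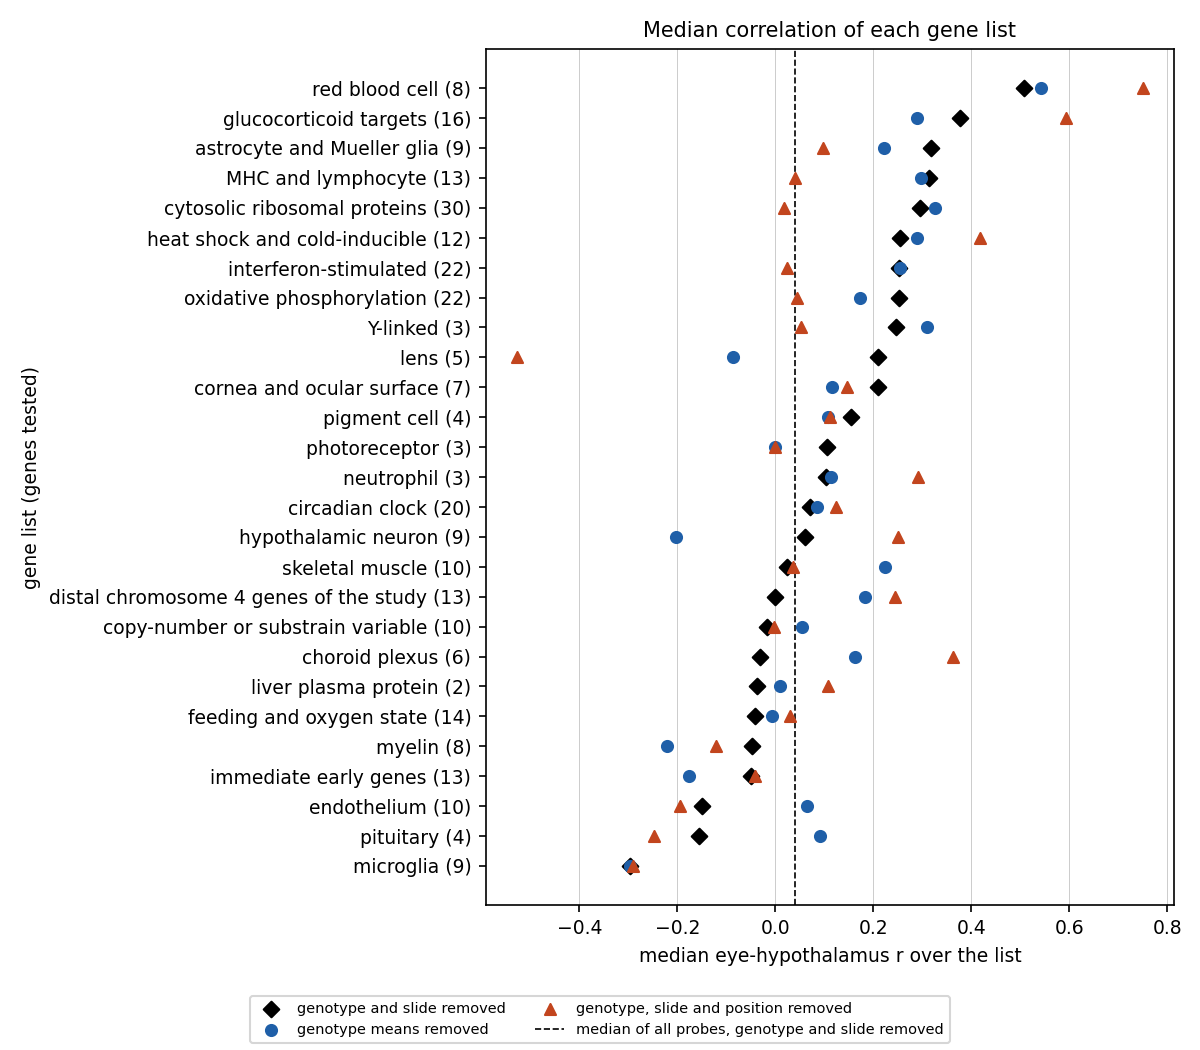
Median r over the tested genes of each of the 27 lists (rows, number of genes in brackets) with genotype and slide taken out (black diamonds), genotype means only (blue circles) or genotype, slide and position (red triangles); the dashed line is the median of all probes, 0.040. With genotype and slide taken out, red cell genes and glucocorticoid targets lie highest, and the ribosomal, oxidative phosphorylation, interferon and MHC lists fall close to 0 with position taken out.

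For lists of cells that belong to 1 tissue, only members that were also well above background in the other could be tested. The median r was 0.11 for 3 photoreceptor genes, 0.21 for 5 lens genes, 0.15 for 4 pigment cell genes, 0.21 for 7 genes of cornea and ocular surface, 0.06 for 9 hypothalamic neuron genes, -0.16 for 4 pituitary genes and -0.03 for 6 choroid plexus genes. The basal keratin Krt14 stood out in them (r = 0.79), at a hypothalamic level of -4.87 to -4.20, and had r = 0.67 with genotype means alone. The 10 muscle genes had a median of 0.02 and ran from the troponin gene Tnnt3 (0.82) to the actin gene Acta1 (-0.72). With genotype means alone Tnnt3 had r = 0.20 and Acta1 r = -0.81 (permutation p = 0.0008), and a second probe of Tnnt3 gave r = 0.15. Acta1 was named as the lowest of its list, so this p adds no independent support. Cells present in both tissues gave a median of 0.32 for 9 astrocyte and Mueller glia genes, -0.05 for 8 myelin genes, -0.15 for 10 endothelial genes and -0.30 for 9 microglia genes. Of the 10 endothelial genes 3 had r above 0, the tight-junction gene Cldn5 (0.81) being the highest and Tek reaching 0.44. Per3-/- 7 was the highest mouse for Cldn5 in both tissues (r = 0.80 without it). With genotype means alone 7 of the 10 endothelial genes had r above 0, and their median was 0.06. The microglial Tyrobp had r = -0.63, and -0.38 without WT 8 or -0.37 without Per3-/- 8, and C1qa had r = -0.55. The microglial median was 0.05 without WT 8. Genes of feeding and oxygen state had a median of -0.04 over 14 members. The lists with few tested members had medians of 0.10 (3 neutrophil genes), -0.04 (2 liver plasma protein genes) and 0.25 (3 Y-linked genes).

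The 13 tested genes of distal chromosome 4 near Per3 were named by the study for their difference between genotypes in these samples. None reached an unadjusted p under 0.05 with genotype and slide taken out. Of all probes 3.44% did with a positive and 2.03% with a negative slope, so none of 13 is near the share of all probes. The median r of the 13 was -0.001. It was 0.18 with genotype means alone and 0.24 with position taken out as well as genotype and slide. Prdm16, a transcriptional regulator of brown fat, differed between genotypes in both tissues, from 1.02 to 1.41 in WT and from -3.31 to -2.59 in Per3-/- eyes, and from 0.07 to 0.78 and from -2.96 to -2.02 in the hypothalamus, without overlap. The r of Prdm16 was 0.02 with genotype and slide taken out, and 0.32 with genotype means alone. The covariation itself was not shown to differ between WT and Per3-/- mice. The term for a different slope in the genotypes was called for 0 of 25344 probes (limma, adjusted p). It had an unadjusted p under 0.05 for 1364 of the 25344. The slope was more positive in Per3-/- mice for 845 of these and less positive for 519. Whether these unadjusted counts exceed chance was not tested. With slide not taken out the median r over probes was 0.048 in WT and 0.074 in Per3-/- mice, and this difference was not tested.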

How the data were processed

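Cy3-labelled RNA of 28 samples was hybridised to Agilent oligonucleotide arrays (60 bases per probe), 1 array per mouse and tissue. The authors extracted the spots with Agilent Feature Extraction 10.7.1.1, and the deposited processed signal is a background-subtracted intensity on a linear scale. The authors also deposited log2 values, relative to the array's 75th percentile and centred on each probe's median over the tissue, which served as an alternative. From the intensities, log2 minus the log2 of the 75th percentile was computed, leaving out spots marked uneven or as outliers (36 to 91 per array). Probes were named through their accession, symbol or synonym, and positions are those of the hypothalamus files (mm9).

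Residuals after genotype and slide were correlated over the mice, and the slope of hypothalamus on eye was tested with limma 3.58.1 (R 4.3.3), two-sided, with Benjamini-Hochberg adjustment over every tested probe. Pairings were tested by exact permutation, and r and rho of named genes, on genotype residuals, by 100000 shuffles within genotype. The titles number the replicates of each genotype within a tissue, and equal numbers were taken to be the same mouse. Code was tested on simulated data. Python 3.11.15, numpy 2.4.6, pandas 2.3.3 and scipy 1.17.1 were used.

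The named genes were the first 12 by p with the same sign without slide, since fewer than 20 passed the threshold, then the 5 negative ones of lowest p, 22 genes fixed by name (19 tested) and the 2 highest and 2 lowest of each of 27 lists. Each list gene was represented by its brightest tested probe. Other genes, such as Xlr4b, Gria1 and Nfkbia, were named after their values were seen. The members and lists were chosen with earlier results of these data known. Alternatives were genotype means only, a replicate block, quantile normalization, normexp (offset 50), no filter on dim probes, bright probes only, the authors' log2 values, each genotype alone and leaving out each mouse. Taking out position was added after the data were seen. The number of arrays limits the precision.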

Additional observations from a re-analysis of the deposited data

Results flagged for a closer look

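Values far from the other mice of their group (by the gap to the nearest mouse over the range of 7 mice) were found 18 times in 180 groups of named genes and array measures. In groups not picked by their values, chance flags about 1 in 20. Many of these genes were picked by their correlations, so the number of flags cannot be set against that rate. The Slc25a37 values of WT 6 (-4.05 in the eye, -3.99 in the hypothalamus) and Per3-/- 5 (-4.00 and -3.90) stood apart in both tissues, and so did the Sgk1 values of Per3-/- 7 (4.82 and 2.32). The hypothalamus of Per3-/- 7 also stood apart for Nlrp10 (-1.48) and Mef2c (2.01). In the eye, Mid1 stood apart in both mice numbered 3, at 1.70 in WT and 1.67 in Per3-/-, with no such value in their hypothalamus. The other values were Tmem267 (-1.39, eye of WT 7), Uvrag (-5.33, eye of WT 8), Ciart (-2.45, eye of Per3-/- 7), AK036326 (-4.56, hypothalamus of Per3-/- 2), Per3 (-3.82, hypothalamus of WT 7), Fkbp5 (-2.36, hypothalamus of Per3-/- 5), Igtp (1.15, hypothalamus of Per3-/- 3) and Nfkbia (2.57, hypothalamus of WT 8).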

How the results depend on the processing

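No setting gave a median r over probes with an exact p under 0.05. It was negative in WT mice alone with slide taken out (-0.032) and ran from 0.002 to 0.068 without each mouse in turn. The mean profile correlation of matched mice ran from -0.0027 (without Per3-/- 4) to 0.096, reached the smallest possible exact permutation p of 0.0312 without WT 7 (0.040) or WT 8 (0.024), and was -0.010 with position taken out. The count of called probes moved most. It was 24 with genotype means only, 4 in Per3-/- mice alone, 2 after quantile normalization (Xlr3c among them) and 2 with no filter (Xlr3c not among them), 1 with the authors' log2 values, and 0 with normexp, bright probes only, position taken out, or WT mice alone. It ran from 0 to 2 without each mouse, and was 0 for either genotype alone without slide. The cause of these changes was not tested.

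With the replicate number as a block, over the numbers shared by both genotypes, the median r was 0.088 and 0 probes were called. The deviations of a WT and a Per3-/- mouse that shared a number had correlations from 0.022 to 0.67 in the eye, and from -0.22 to 0.33 in the hypothalamus, and were over 0.1 in 5 of 6 pairs in the eye and 3 of 6 in the hypothalamus. Such mice also shared a slide, and since not every pair was over 0.1 the numbers were not taken to pair the genotypes. Of the gene lists, taking out position moved 6 medians by more than their jackknife error, to 0.024 for interferon-stimulated genes, 0.24 for distal chromosome 4, 0.017 for ribosomal proteins, 0.098 for astrocytes and Mueller glia, 0.36 for choroid plexus and -0.53 for lens. Hypothalamic neuron genes had -0.20 with genotype means. Without each mouse in turn, immediate early genes ran from -0.13 to 0.37 (highest without Per3-/- 7) and pigment cell genes from -0.37 (without Per3-/- 8) to 0.22. Probes near background bound what can be seen, and 15773 of 41174 probes were not tested for that reason.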
